A study of Homo sapiens with 4 samples.

Results

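The genes described here are 42 listed genes of the unfolded protein response and of the secretory pathway, of 19335 protein-coding genes placed on the hg38 build. For each gene, all ATAC-seq peaks over the gene body and 5 kb on each side were collected from 4 peak lists. Peaks within 1 kb of either end of the gene were kept apart from the others. The 42 genes held 134 regions, a region being the merged stretch of overlapping peaks, of 73729 regions in all. Of the 134, 50 lay at a gene end and 84 lay away from it.

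ATAC-seq uses the Tn5 transposase to cut accessible chromatin and add sequencing adapters to it, and was run on AMO1, an established myeloma line with plasma cell features. Its cells carried an empty PCDH vector or the same vector with PHF19, a Polycomb-like protein that binds the histone H3 methyltransferase complex PRC2. The genotype is labelled WT for the empty vector libraries and PHF19 overexpression for the others. A further empty vector library and a further PHF19 overexpression library have titles beginning with IFN. What IFN stands for is not said in the labels, and all 4 libraries share the same stated growth and transfection. Each of the 4 groups held 1 library, so the values below describe libraries and have no replicate error. The labels do not say whether the cells were a pool or a clone, and fewer open cells and less opening per cell cannot be told apart in bulk libraries.

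The endoplasmic reticulum (ER) is where secreted proteins enter, fold and receive their disulfide bonds. When unfolded proteins build up there, the sensors IRE1 (gene ERN1), PERK (EIF2AK3) and ATF6 switch on XBP1, ATF4 and ATF6 as transcription factors, and these raise chaperones, disulfide enzymes, translocation channels and the machinery that degrades misfolded proteins. Plasma cells secrete large amounts of antibody, and they depend on XBP1 and on this machinery. Myeloma is treated with drugs that block protein disposal.

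The ER stress response element, ERSE, is the motif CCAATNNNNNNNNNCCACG, which NF-Y and ATF6 bind. On either strand it was found in the 250 bases before the outermost listed start of 5 of 39 listed genes with a promoter in the RefSeq table, 12.8%, against 18 of 15454 promoters in all, 0.116%. The 5 promoters are printed because they hold the letters by which this response is known. The promoter of PPP1R15A is printed as that of the gene with the largest difference at its gene end, by the mean over the 2 pairs with PHF19 overexpression, and with no such match. Each is the 250 bases before the start, 5′ to 3′ on the strand of the gene, from RefSeq on GRCh38.p14, with the ERSE in capitals. Where the ERSE lies on the opposite strand, the capitals show its reverse complement.
HSPA5: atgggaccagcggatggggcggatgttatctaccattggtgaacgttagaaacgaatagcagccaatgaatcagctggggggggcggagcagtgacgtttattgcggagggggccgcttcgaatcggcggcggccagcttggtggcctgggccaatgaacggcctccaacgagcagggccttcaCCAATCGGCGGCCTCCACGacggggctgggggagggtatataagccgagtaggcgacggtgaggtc
HSP90B1: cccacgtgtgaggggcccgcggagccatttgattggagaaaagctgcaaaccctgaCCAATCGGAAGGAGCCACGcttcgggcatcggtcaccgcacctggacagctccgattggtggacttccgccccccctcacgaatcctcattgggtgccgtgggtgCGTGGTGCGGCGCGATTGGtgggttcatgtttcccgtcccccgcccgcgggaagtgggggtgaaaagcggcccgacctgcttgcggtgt
CALR: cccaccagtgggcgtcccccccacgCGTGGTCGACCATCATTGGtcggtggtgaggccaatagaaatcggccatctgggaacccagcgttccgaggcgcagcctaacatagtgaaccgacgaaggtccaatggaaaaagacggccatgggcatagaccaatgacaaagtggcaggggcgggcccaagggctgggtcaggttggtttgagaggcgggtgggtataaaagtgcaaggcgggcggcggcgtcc
ERO1B: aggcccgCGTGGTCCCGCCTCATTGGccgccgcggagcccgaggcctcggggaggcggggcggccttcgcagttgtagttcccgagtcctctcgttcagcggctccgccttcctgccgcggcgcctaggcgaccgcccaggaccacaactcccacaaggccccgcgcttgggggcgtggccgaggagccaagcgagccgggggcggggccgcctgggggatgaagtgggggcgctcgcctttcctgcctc
XBP1: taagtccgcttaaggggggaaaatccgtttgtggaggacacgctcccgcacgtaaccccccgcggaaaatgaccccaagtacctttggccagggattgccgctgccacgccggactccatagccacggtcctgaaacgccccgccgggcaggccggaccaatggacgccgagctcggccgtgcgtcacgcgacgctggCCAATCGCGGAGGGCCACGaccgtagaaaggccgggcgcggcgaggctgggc
PPP1R15A: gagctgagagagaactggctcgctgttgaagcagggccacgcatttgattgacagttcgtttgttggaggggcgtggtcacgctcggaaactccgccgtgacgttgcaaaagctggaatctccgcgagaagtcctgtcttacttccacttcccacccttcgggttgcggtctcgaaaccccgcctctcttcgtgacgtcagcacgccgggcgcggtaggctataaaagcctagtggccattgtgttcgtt
These lie at chr9:125241344-125241593 (minus strand) for HSPA5, chr12:103930160-103930409 (plus) for HSP90B1 and chr19:12938359-12938608 (plus) for CALR. They lie at chr1:236281959-236282208 (minus) for ERO1B, chr22:28800570-28800819 (minus) for XBP1 and chr19:48872171-48872420 (plus) for PPP1R15A.

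The ERSE began 66 bases before the start in HSPA5, 52 in XBP1, 225 in CALR and 243 in ERO1B, and HSP90B1 held 2, at 194 and 89 bases. In CALR, in ERO1B and in the nearer match of HSP90B1 it was on the opposite strand. The related ERSE-II, ATTGGNCCACG, was found in the promoters of HERPUD1 and SDF2L1, 5.13% of the 39 against 0.0776% of all promoters. The short XBP1 core ACGTG was present in 15 of the 39, 38.5%, against 20.8% of all. An ATF4 motif, TGATGCAAT or TGATGNCAAT, was in 0 of the 39 and in 0.201% of all promoters. All motifs were searched on both strands, matches of different motifs may overlap, and a match is a description of letters and not of binding. Of these 6 printed promoters, those of the 5 ERSE genes lay wholly inside a region with a peak in all 4 libraries.

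Gene-end accessibility is given as height, the number of fragments stacked at the tallest summit of a region per M fragments of the library, M standing for mega. The libraries held 27.4 M fragments for empty vector, 18.2 M for PHF19 overexpression, 65.9 M for IFN empty vector and 16.4 M for IFN PHF19 overexpression. The lowest peaks called were 0.365, 0.439, 0.243 and 0.489 per M in that order, so that a weak peak was most easily called in IFN empty vector. The header of that library alone names a different project folder. In the IFN-prefixed pair, its folder and its depth cannot be told apart from PHF19 overexpression. The 10 plasma cell marker genes, which include XBP1, MZB1 and JCHAIN of the listed genes, all had a gene-end peak in every library. Their summed height was 262 to 426 per M, of which SDC1, the syndecan known as CD138, held 158 to 314. Of 7 B cell markers 4 or 5 had a gene-end peak, with sums of 20.5 to 24.0 per M, and PAX5 and MS4A1 had none in any library. Among myeloid genes CSF1R, CD14, LYZ and MPO had none and 2 of 8 had one, with sums of 3.29 to 5.28 per M. CD3G and NKG7 had none, and 3 to 6 of 8 T and NK cell genes had a peak, with sums of 21.5 to 23.3 per M. Of the erythroid list 1 or 2 of 6 genes had a gene-end peak (8.72 to 9.71 per M), and of the stromal and epithelial list 5 to 7 of 8 (25.2 to 32.0 per M), with none at CDH1. The part of other cell types in the results was not tested. At the PHF19 gene a peak of 335 bp, chr9:120857950-120858284, was listed in both PHF19 overexpression libraries (7.90 and 7.33 per M) and in neither empty vector library. The vector also carries PHF19, so fragments of the insert and of the gene cannot be told apart at this peak. The other PHF19 regions had a peak in every library. Their centred log2 ratios, defined below, ran from -0.27 to 0.15 without the prefix and from -0.30 to -0.23 with it.

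Most of the listed genes had a tall gene-end region, and all that had one had it in every library. A gene-end peak was present for 40 of the 42 genes (95.2%) in each library, while 63.0% of all protein-coding genes had one in empty vector, 62.2% in PHF19 overexpression, 66.1% in IFN empty vector and 62.3% in IFN PHF19 overexpression. The median height over the 40 was 14.0 per M in empty vector, 11.3 in PHF19 overexpression, 11.1 in IFN empty vector and 11.3 in IFN PHF19 overexpression. The medians over all genes with such a region were 7.89, 7.02, 6.18 and 7.27 per M. By mean height, 34 of the 40 stood in the upper 50% of genes, 26 in the upper 25% and 11 in the upper 10%, and JCHAIN alone stood in the lower 25%. The regions were not much longer than those of other genes, with a median of 1532 bp against 1419 bp. The empty vector library was the tallest for 31 of the 40 genes, and for 59.7% of all genes with a gene-end region in every library. Of the 40 regions, 9 were also the gene-end region of another protein-coding gene, for example at a shared promoter.

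**Figure D1:**
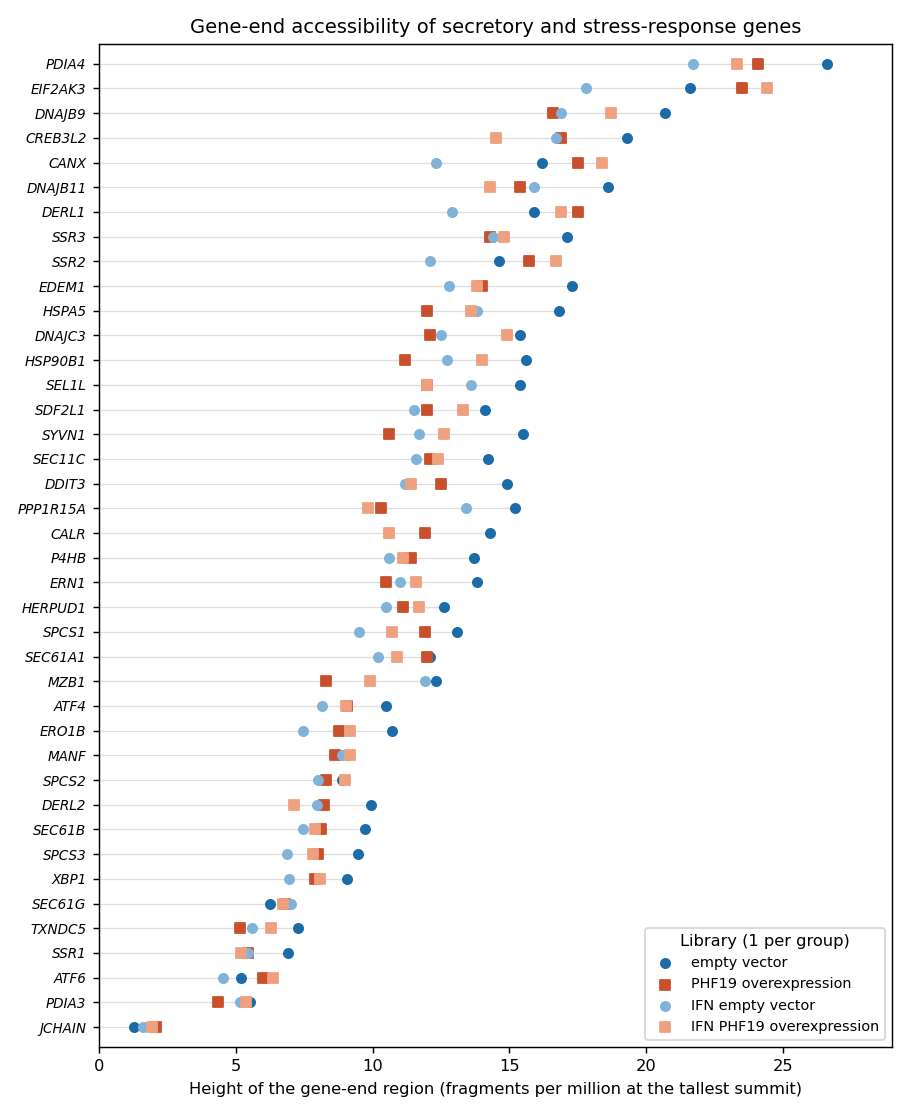
Height of the gene-end region in fragments per M (horizontal axis) for each of the 40 listed genes with such a region (vertical axis, ordered by mean height); each point is 1 of the 4 libraries, blue circles for empty vector and orange squares for PHF19 overexpression, the paler shade for the IFN prefix. The genes run from JCHAIN at 1.28 to 2.08 per M to PDIA4 at 21.7 to 26.6 per M, and the empty vector point is the rightmost for 31 of the 40.

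The plot of heights by gene shows the tallest regions at PDIA4, EIF2AK3, DNAJB9 and CREB3L2. PDIA4, a disulfide isomerase of the ER, had 26.6, 24.1, 21.7 and 23.3 per M. Here and below, 4 values are in the order empty vector, PHF19 overexpression, then the same vectors with the IFN prefix. DNAJB9, a cochaperone of the chaperone BiP, had 20.7, 16.6, 16.9 and 18.7 per M at a region it shares with THAP5. CREB3L2, a membrane-bound transcription factor related to ATF6, had 19.3, 16.9, 16.7 and 14.5 per M. The lowest were JCHAIN, PDIA3, ATF6 and SSR1. PDIA3, the disulfide isomerase that works with calnexin, had 5.52, 4.33, 5.16 and 5.37 per M, and SSR1, a subunit of the translocon-associated complex, had 6.91, 5.43, 5.46 and 5.19 per M.

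PDIA6 and FKBP11 were the genes without a gene-end region, because their listed starts lie inside the span that RefSeq gives the gene. PDIA6, another disulfide isomerase, had its tallest start region at chr2:10811962-10813364, with 23.2, 21.7, 18.9 and 20.5 per M. FKBP11, a prolyl isomerase abundant in secretory cells, had 8.19, 6.69, 6.83 and 7.27 per M over its start at chr12:48924470-48925944. Counted this way, all 38 genes with a peak over a listed start had it in all 4 libraries. Listed starts were found for 39 genes, and JCHAIN was the gene whose listed start lay under no peak.

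With PHF19 overexpression, gene-end regions of the listed genes differed little from empty vector in either pair of libraries, and more of their ratios lay below 0 than above it, by small amounts. Ratios are log2 of PHF19 overexpression over empty vector, shifted so that the median over every region called in both libraries is 0. Statements on the tallest library, or on overlap between the vectors, use heights per M without this shift. By its ratio, a region was counted as higher or lower when it differed by at least 1.5-fold. In the pair without the prefix, 1 of 40 was higher, JCHAIN, where 4.40% of all gene-end regions were higher, and 0 were lower, where 2.27% were. In the IFN-prefixed pair, 0 of 40 were higher (4.85% of all) and 1 was lower, PPP1R15A (2.37% of all). No gene passed 1.5-fold the same way in both pairs, where 1.99% of all genes were higher and 1.07% lower. These counts are near or below the background.

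The median log2 ratio over the 40 genes was -0.15 in the pair without the prefix, against -0.06 over all genes, and -0.07 in the IFN-prefixed pair, against 0.01. Of the 40 ratios 30 were below 0 in the first pair, where 59.6% of all genes were, and 27 in the second, where 48.2% were. In both pairs 23 of the 40 were below 0, 57.5% against 37.4% of all genes, and 6 were above 0, 15.0% against 28.8%. When the trend of the ratio with region height was removed, the median of the first pair was -0.03, which is the shift relative to regions of like height. The 2 pairs share no library. The median size of a difference, whatever its sign, was 0.18 in the first pair, as over all genes, and 0.10 in the second, against 0.17.

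**Figure D2:**
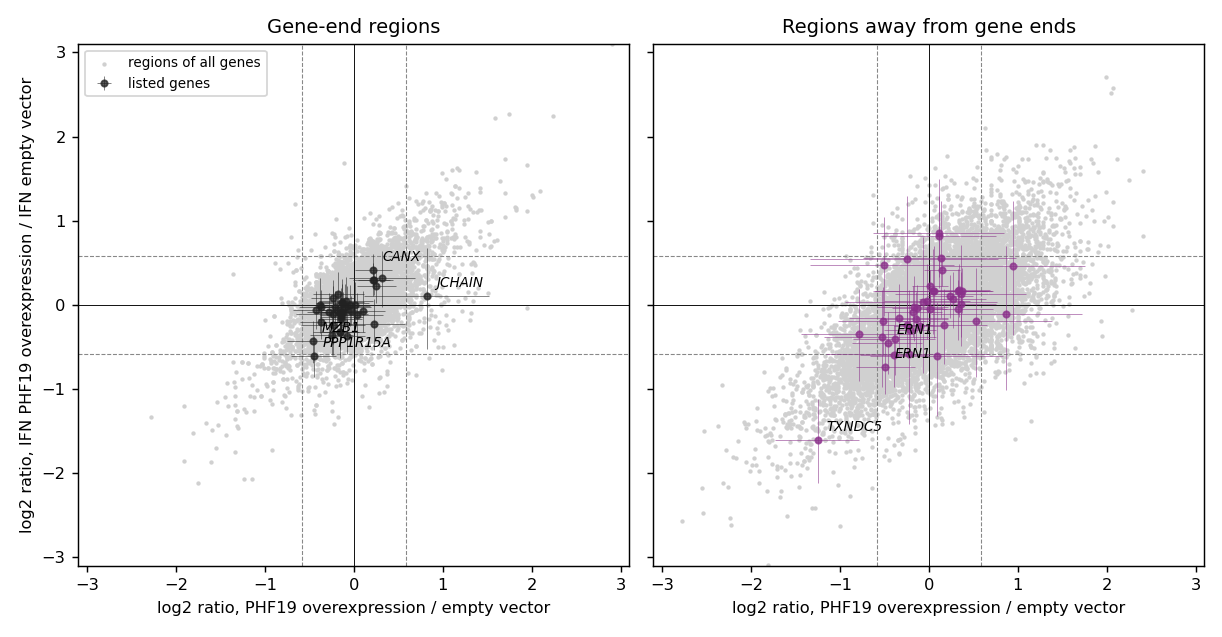
Centred log2 height ratios of PHF19 overexpression to empty vector without the prefix (horizontal) and with the IFN prefix (vertical), for gene-end regions (left) and regions away from gene ends (right); grey points are regions of all genes, dark or purple points those of the listed genes with 95% counting intervals, and dashed lines mark 1.5-fold. The listed gene ends lie within 1.5-fold in at least 1 of the pairs, and on the right a TXNDC5 region stands low in both, at -1.25 and -1.60.

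Intervals given with ratios are exact 95% intervals for a ratio of 2 counts. They cover counting error only, and because duplicate fragments were kept by the authors, they may be too narrow. By them, 9 of the 40 gene-end regions lay below 0 (13.5% of all) and 4 above 0 (9.13% of all) in the pair without the prefix. In the IFN-prefixed pair 6 lay below 0 (8.78% of all) and 4 above (14.3% of all). PPP1R15A, SEL1L and MZB1 lay below 0 in both pairs (3.99% of all), and EIF2AK3, CANX and DERL1 lay above 0 in both (6.07% of all). Taller regions have narrower intervals, and 26 of the 40 stood in the upper 25% of genes by height. The shares of all genes are therefore not a like background for these counts.

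Among the 8 sensors and transcription factors, 5 gene-end ratios were below 0 in both pairs and 2, those of EIF2AK3 and ATF6, were above 0 in both. EIF2AK3 encodes PERK, the sensor kinase that slows translation by phosphorylating eIF2alpha. Its region at chr2:88626862-88628364 had 21.6, 23.5, 17.8 and 24.4 per M. Both PHF19 overexpression libraries were above both empty vector libraries, with ratios of 0.23 (0.05 to 0.41) and 0.29 (0.12 to 0.45). With the median of regions within 2.5 Mb subtracted, the ratios were -0.12 and 0.00, so the region was not above its neighbourhood.

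ATF6, the membrane-bound sensor that is cut in the Golgi to free its transcription factor, had 5.19, 5.98, 4.54 and 6.35 per M at chr1:161765823-161767159. The ratios were 0.32 (-0.06 to 0.69) and 0.32 (-0.02 to 0.64). Again the groups did not overlap, and against the local median the ratios were -0.02 and 0.00. ERN1, the sensor that splices XBP1 mRNA, had 13.8, 10.5, 11.0 and 11.6 per M at chr17:64129605-64131911. Its libraries overlapped, with ratios of -0.28 (-0.53 to -0.02) and -0.09 (-0.33 to 0.14).

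XBP1, the factor that ERN1 activates and that drives the secretory program, had 9.06, 7.90, 6.93 and 8.06 per M at chr22:28799636-28801205. The ratios, -0.09 (-0.39 to 0.22) and 0.05 (-0.24 to 0.33), did not differ from 0 beyond counting error. ATF4, the factor translated when PERK is active, had 10.5, 9.05, 8.15 and 9.04 per M, with ratios of -0.10 and -0.02. Its target DDIT3, the pro-apoptotic factor CHOP, had 14.9, 12.5, 11.2 and 11.4 per M at a region shared with MBD6, with ratios of -0.14 and -0.14. All 3 had their highest value in empty vector and overlapped between vectors. CREB3L2 had ratios of -0.08 (-0.29 to 0.12) and -0.37 (-0.58 to -0.17).

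PPP1R15A encodes GADD34, the phosphatase subunit that reverses the effect of PERK on translation, and it had the lowest mean of the 2 ratios among the 40 genes, -0.53. Its tallest gene-end region is not at the start but at the far end, chr19:48874271-48876549, with 415, 187, 881 and 161 fragments. These are 15.2, 10.3, 13.4 and 9.83 per M, both PHF19 overexpression libraries being lower than both empty vector libraries. The ratios were -0.45 (-0.71 to -0.20) and -0.61 (-0.86 to -0.37), and -0.32 and -0.57 against the local median. Over its start, chr19:48872199-48873711, the heights were 7.27, 5.76, 5.84 and 6.47 per M and overlapped, with ratios of -0.22 (-0.58 to 0.12) and -0.02 (-0.34 to 0.29). The difference at this gene was thus measured at its far end.

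Of the 10 chaperones and folding helpers, 9 had a gene-end region, and 5 of these ratios were below 0 in both pairs and 1 above 0 in both. HSPA5 encodes BiP, the main ER chaperone, which also holds the sensors inactive. Its region at chr9:125240723-125242118, which covers the ERSE printed above, had 16.8, 12.0, 13.8 and 13.6 per M. Both PHF19 overexpression libraries were below both empty vector libraries, but those with the IFN prefix were nearly level, and the ratios were -0.37 (-0.61 to -0.13) and -0.20 (-0.41 to 0.02). A low peak at the far end, chr9:125234843-125235785, was listed for both empty vector libraries (1.13 and 1.15 per M) and for neither PHF19 overexpression library.

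HSP90B1 encodes GRP94, the ER member of the HSP90 family, and had 15.6, 11.2, 12.7 and 14.0 per M at chr12:103928657-103930865. It was lower in the first pair, -0.37 (-0.62 to -0.12), and not beyond counting error in the second, -0.03 (-0.25 to 0.18). CANX encodes calnexin, a lectin chaperone, and was higher in both pairs. Over its start, chr5:179698051-179700480, it had 18.9, 19.4, 14.1 and 20.9 per M and ratios of 0.15 (-0.05 to 0.35) and 0.41 (0.22 to 0.59). The far-end region that stood for the gene, shared with MAML1, had 16.2, 17.5, 12.3 and 18.4 per M and ratios of 0.22 and 0.41. Against the local median the start region was at -0.26 and -0.08 and the far-end region at -0.19 and -0.07, so the sign depended on that step. The other lectin chaperone, CALR, had 14.3, 11.9, 10.6 and 10.6 per M, with ratios of -0.15 and -0.17.

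The disulfide enzymes that had a gene-end region numbered 5 of 6, and none was above 0 in both pairs. Their ratios ran from -0.38 to -0.03 in the first pair and from -0.11 to 0.13 in the second. TXNDC5, a disulfide isomerase abundant in plasma cells, had the lowest of these, -0.38 (-0.75 to -0.02), in the first pair and 0.00 (-0.33 to 0.32) in the second, from 7.27, 5.16, 5.60 and 6.29 per M. ERO1B, the oxidase that recharges the isomerases, had 10.7, 8.78, 7.47 and 9.16 per M, and P4HB, the founding isomerase PDI, had 13.7, 11.4, 10.6 and 11.1 per M. Neither separated the vectors.

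Of the 6 genes for degradation of misfolded proteins, 5 were below 0 in both pairs and DERL1 was above 0 in both. SEL1L, the adaptor of the ubiquitin ligase HRD1, had 15.4, 12.0, 13.6 and 12.0 per M at chr14:81533364-81534260. Both PHF19 overexpression libraries were lower than both empty vector libraries, with ratios of -0.25 (-0.49 to -0.01) and -0.36 (-0.59 to -0.13). Against the local median these were -0.04 and -0.12. SYVN1, the ligase HRD1 itself, had 15.5, 10.6, 11.7 and 12.6 per M and ratios of -0.43 (-0.68 to -0.18) and -0.06 (-0.29 to 0.16). DERL1, a channel component for the exit of proteins, had 15.9, 17.5, 12.9 and 16.9 per M and ratios of 0.25 (0.04 to 0.47) and 0.22 (0.02 to 0.42). Against the local median both were near 0, at -0.01 and 0.02.

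The ratios of the 10 genes of translocation and signal peptide cleavage ran from -0.24 to 0.23 in the first pair and from -0.24 to 0.30 in the second, and 4 were below 0 and 1, SSR2, above 0 in both. SEC61A1, the pore of the translocon, had 12.1, 12.0, 10.2 and 10.9 per M, with ratios of 0.10 and -0.07. The signal peptidase subunit SPCS3 had 9.46, 8.01, 6.86 and 7.82 per M, with ratios of -0.13 (-0.43 to 0.17) and 0.02 (-0.27 to 0.31). For genes of the height of SPCS3, differences as small as those of SPCS3 were not detectable at these depths. SSR2 had 14.6, 15.7, 12.1 and 16.7 per M, with ratios of 0.22 (-0.01 to 0.44) and 0.30 (0.10 to 0.50). Against the local median the SSR2 ratios were 0.01 and 0.02.

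The 2 genes of antibody assembly differed from each other. MZB1, a cochaperone that helps GRP94 and antibody folding in B lineage cells, had 12.3, 8.28, 11.9 and 9.89 per M at chr5:139389360-139390360, near PROB1 as well. The authors' fold over local background was low there, at 2.87, 2.11, 3.21 and 2.29, against 9.64 to 11.0 at the HSPA5 gene end. The called peaks were 905, 594, 1001 and 518 bp wide. Both empty vector libraries were higher than both PHF19 overexpression libraries, with ratios of -0.46 (-0.75 to -0.18) and -0.43 (-0.69 to -0.19), and of -0.51 and -0.64 against the local median. A taller region upstream, chr5:139391851-139394555, did not share this, with 19.8, 18.5, 16.1 and 21.3 per M and ratios of 0.01 and 0.23. JCHAIN, which links IgM and IgA units, had only 35, 38, 107 and 32 fragments at chr4:70666718-70668856, that is 1.28, 2.08, 1.62 and 1.95 per M. Its summit in PHF19 overexpression, where it was tallest, lay 1013 bases before the listed start. The ratios were 0.82 (0.11 to 1.52) and 0.10 (-0.52 to 0.68), and against the local median they were 0.43 and -0.15.

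The 2 comparisons of the IFN prefix use the same 4 libraries as those above. With empty vector, 0 of 40 gene-end regions were higher (0.721% of all) and 0 lower (1.19%) past 1.5-fold, with a median log2 ratio of IFN-prefixed over not of -0.21, against -0.20 for all genes. With PHF19 overexpression, 0 were higher (0.938% of all) and 0 lower (1.36%), with a median of -0.08, against -0.06. No gene end passed in both, where 0.110% of all were higher and 0.0338% lower. The largest differences with empty vector were JCHAIN at 0.43 (-0.13 to 1.02) and ERO1B at -0.43 (-0.65 to -0.22). The depth, and for IFN empty vector the project folder, cannot be told apart from the prefix.

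Away from gene ends, 30 of the 42 genes had at least 1 region and 12 had none. These regions include listed starts that lie inside the RefSeq span of the gene, such as the tallest start regions of CANX, PDIA6 and FKBP11. ERN1 held 10, CREB3L2 held 9, EIF2AK3 held 8 and PDIA6 held 6 of the 84. All 4 libraries had a peak in 42 of the 84, and 21 were listed for IFN empty vector alone, as were 24.4% of such regions of all genes. Past 1.5-fold in the first pair, 2 of 44 regions were higher (15.1% of all) and 3 lower (11.4%). In the IFN-prefixed pair, 4 of 54 were higher (13.2% of all) and 6 lower (13.2%). In both pairs 0 of 42 were higher (4.86% of all) and 1 was lower (6.93%). For the IFN prefix, 2 of 55 regions were higher (7.18% of all) and 1 lower (1.91%) with empty vector, and 4 of 44 were higher (8.50%) and 3 lower (4.45%) with PHF19 overexpression. None passed in both (1.08% of all higher and 0.0571% lower). These shares, too, were near or below those of all genes, but the 2 sets are not made up alike. Here and below, the regions of all genes away from gene ends leave out those at an end of any gene. Only those among the 84 were kept, since some of the 84 lie at an end of a neighbouring gene. Gene-end regions passed 1.5-fold less often, with 4.40% higher and 2.27% lower in the first pair.

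The region lower in both pairs lies inside TXNDC5, at chr6:7897631-7899502, with its summit 12546 bases into the gene from the first listed start; exon positions were not used here, and the readthrough transcript BLOC1S5-TXNDC5 covers the same stretch. It had 189 fragments in empty vector, 49 in PHF19 overexpression, 413 in IFN empty vector and 38 in IFN PHF19 overexpression. These are 6.91, 2.69, 6.27 and 2.32 per M, and both empty vector libraries were well above both PHF19 overexpression libraries. The ratios were -1.25 (-1.73 to -0.79) and -1.60 (-2.12 to -1.12), or 2.38-fold and 3.03-fold lower. Of all regions away from gene ends with peaks in all 4 libraries, 248 of 14009, 1.77%, were at least 2-fold lower in both pairs. The local median left the ratios at -1.30 and -1.63. The IFN prefix made little difference to this region, at -0.05 (-0.31 to 0.20) with empty vector and -0.33 (-0.98 to 0.31) with PHF19 overexpression.

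**Figure D3:**
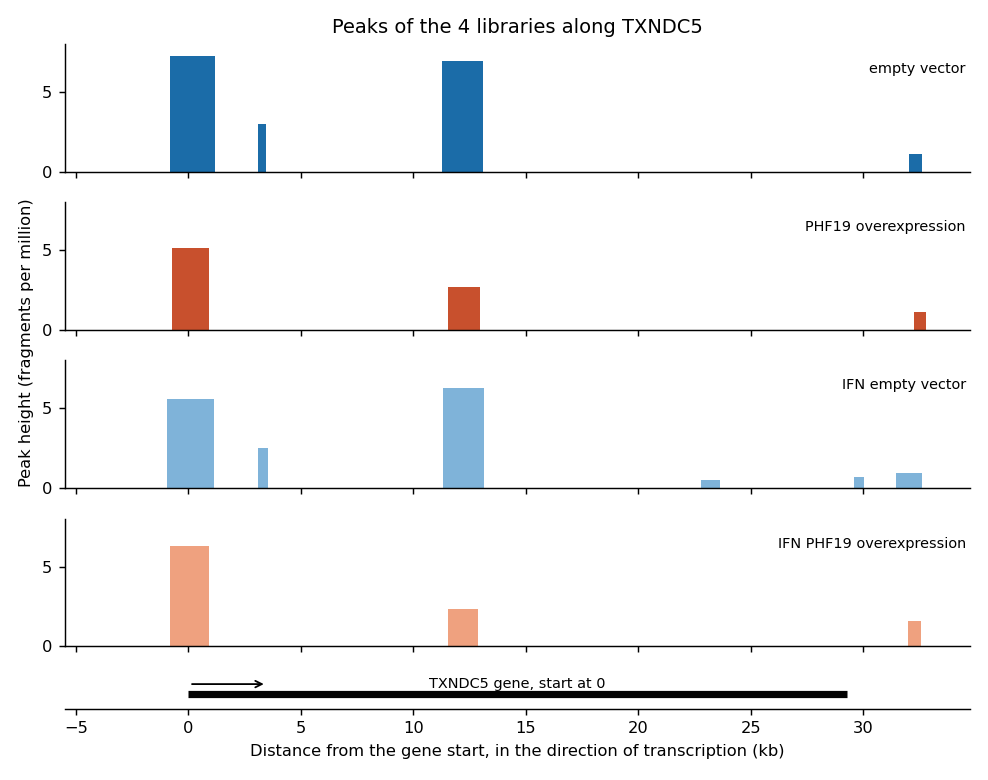
Peaks along TXNDC5 in each library: the horizontal axis is the distance from the gene start in kb in the direction of transcription, the vertical axis is peak height in fragments per M, each bar is 1 peak drawn to its called width, and the black line is the gene. The bar at about 12.5 kb stands at 6.91 and 6.27 per M in the empty vector libraries and at 2.69 and 2.32 in the PHF19 overexpression libraries, while the bar over the start varies from 5.16 to 7.27.

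The map of TXNDC5 also shows a narrower peak at chr6:7907258-7907694, nearer the start, in both empty vector libraries (2.96 and 2.49 per M) and in neither PHF19 overexpression library. The authors' fold over local background was 2.38 and 2.22 there, against 6.34 and 5.97 at the region above in the same libraries. A region beyond the far end, chr6:7878009-7879337, had 1.13, 1.15, 0.956 and 1.59 per M, with ratios of 0.14 (-0.74 to 0.98) and 0.56 (-0.15 to 1.24). TXNDC5 thus held a region well below 0 in both pairs and a low one whose wide intervals reached 0. Whether that low region differed between the vectors is not resolved.

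ERN1 had the most regions, 12. In 7 of them every library had a peak, and 6 of the 7 had centred ratios below 0 in both pairs. Over all genes, 37.4% of gene-end regions and 38.0% of regions away from them did. At the start and about 53 kb into the gene, IFN PHF19 overexpression was slightly above IFN empty vector before centring. The heights there were 11.6 against 11.0 and 3.85 against 3.81 per M. At chr17:64081872-64083081, 47883 bases into the gene, the heights were 9.46, 6.25, 8.97 and 6.05 per M. The empty vector libraries were both higher, with ratios of -0.49 (-0.82 to -0.16) and -0.74 (-1.06 to -0.43), and of -0.41 and -0.66 against the local median. At chr17:64103445-64104871 the heights were 6.54, 4.39, 5.71 and 4.70 per M, with ratios of -0.46 (-0.86 to -0.08) and -0.45 (-0.82 to -0.09). Only the second ratio of the first of these regions passed 1.5-fold. Another region, at chr17:64107664-64108743, passed it in the first pair alone, at -0.79 (-1.44 to -0.17) and -0.34 (-0.90 to 0.19), from 3.07, 1.65, 2.47 and 2.20 per M.

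**Figure D4:**
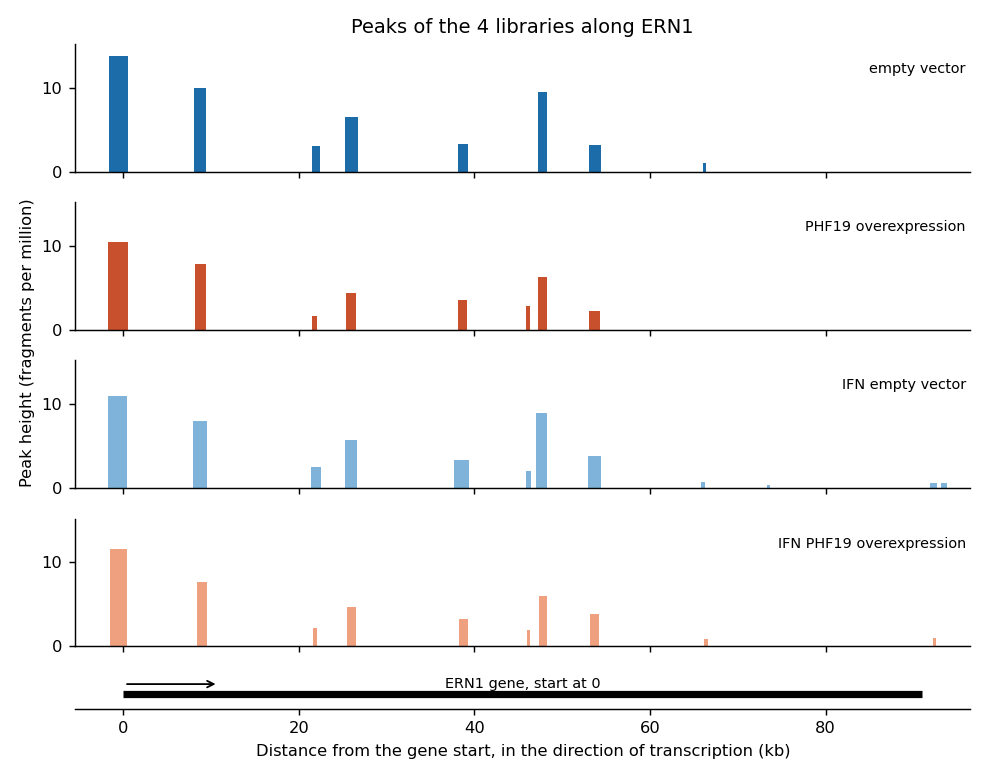
Peaks along ERN1 in each library, with distance from the gene start in kb on the horizontal axis and peak height in fragments per M on the vertical axis; bars are peaks at their called width and the black line is the gene. The bars at about 26.1 and 47.9 kb are lower in both PHF19 overexpression libraries, 4.39 and 4.70 against 6.54 and 5.71 per M and 6.25 and 6.05 against 9.46 and 8.97 per M.

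Of the 42 regions away from gene ends with peaks in every library, 17 had ratios below 0 in both pairs, 40.5% against 38.0% of all, and 15 had ratios above 0 in both, 35.7% against 33.3%. Ranked by the smaller of the 2 differences, the next lower regions lay at SEC61B, SEL1L and XBP1. Near SEC61B, the small subunit of the translocon, the region at chr9:99235238-99236642 had 6.61, 4.66, 6.11 and 4.52 per M, with ratios of -0.39 (-0.78 to -0.01) and -0.60 (-0.98 to -0.24). Within SEL1L all 4 regions with peaks in every library, the gene end among them, had ratios below 0 in both pairs. The one at chr14:81478551-81480838 had ratios of -0.38 (-0.85 to 0.07) and -0.40 (-0.83 to 0.01). Beyond the far end of XBP1, chr22:28791745-28793295 had 2.74, 1.76, 2.26 and 1.95 per M, with ratios of -0.53 (-1.18 to 0.08) and -0.38 (-0.98 to 0.18). For SEL1L and XBP1 the counting intervals reached 0.

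Regions higher in both pairs were of smaller size or depth. Inside EIF2AK3, chr2:88590891-88591662 had 26, 31, 52 and 20 fragments, or between 0.789 and 1.70 per M, with ratios of 0.95 (0.15 to 1.76) and 0.46 (-0.36 to 1.23). A taller EIF2AK3 region, chr2:88599868-88601611, had 211, 164, 473 and 148 fragments, or between 7.18 and 9.04 per M, with ratios of 0.33 (0.03 to 0.64) and 0.17 (-0.11 to 0.43), and of -0.02 and -0.12 against the local median. Of the 5 EIF2AK3 regions with peaks in all libraries, gene ends included, 4 had ratios above 0 in both pairs. So did 3 of 3 for ATF6 and 3 of 4 for CANX. Over all genes, 28.8% of gene-end regions and 33.3% of regions away from them did. Regions of 1 gene are neighbours and not separate observations. Against the local median the gene-end ratios of EIF2AK3, ATF6 and CANX were -0.12 and 0.00, -0.02 and 0.00, and -0.19 and -0.07. In PDIA6, chr2:10832079-10832937, over its outermost listed start, had 7.24, 8.67, 7.18 and 9.10 per M, with ratios of 0.37 (0.06 to 0.68) and 0.17 (-0.10 to 0.44). The neighbouring chr2:10835138-10835761 had 5.81, 6.80, 5.43 and 6.90 per M, with ratios of 0.34 (-0.01 to 0.69) and 0.18 (-0.14 to 0.49). Against the local median these PDIA6 ratios were 0.20 and 0.06, and 0.16 and 0.06, in that order. Both PHF19 overexpression libraries were higher at each of these 4 regions. The regions were picked as higher in both pairs, so this separation follows largely from the pick.

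Some regions had a peak with 1 vector only. In both empty vector libraries and in neither PHF19 overexpression library there were 4 of 84, 4.76% against 9.93% of such regions of all genes, and the reverse held for 0 (0.578% of all). Besides the TXNDC5 peak they were ERO1B at chr1:236284259-236285142 (2.70 and 2.69 per M), PDIA6 at chr2:10817920-10818569 (1.94 and 1.99 per M) and FKBP11 at chr12:48936008-48937427 (0.987 and 1.41 per M). These heights are above the lowest peaks called anywhere with PHF19 overexpression, 0.439 and 0.489 per M, but that need not be the limit at these places. The authors' fold over local background was 2.39 and 2.84 at ERO1B, 5.68 and 5.68 at PDIA6, and 5.16 and 8.32 at FKBP11. A missing call is not a height of 0. In both IFN-prefixed libraries and neither other there were 3 regions (3.57%, against 3.60% of all), the tallest in PDIA3 at chr15:43749748-43750106 with 1.81 and 2.81 per M. No region was listed only for both libraries without the prefix (0.0632% of all). HSP90B1 held a region 4969 bases upstream of its start, chr12:103925129-103925692, with 9.68 per M in empty vector, no peak in PHF19 overexpression, and 8.56 and 5.01 per M in the IFN-prefixed libraries, where the ratio was -0.94 (-1.29 to -0.60).

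The genes with and without an ERSE had similar medians of height and of the ratios with PHF19 overexpression. The 5 with an ERSE had a median height of 11.8 per M and median ratios of -0.18 and -0.03. The 32 others with a promoter and a gene-end region had 11.9 per M and -0.14 and -0.07. These 32 include HERPUD1 and SDF2L1, which hold the related ERSE-II. Medians of so few genes, given without spread, could not show a small difference.

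A further list of 105 genes of the same pathways gave a like picture in the counts past 1.5-fold. Of these, 99 had a ratio in the first pair, 1 higher and 2 lower past 1.5-fold, and 100 in the second, 1 higher and 3 lower. Their median ratios were -0.11 and -0.02. The lean below 0 was weaker than for the listed genes, with 61 of 99 and 54 of 100 ratios below 0. For the listed genes it was 30 and 27 of 40, and for all genes 59.6% and 48.2%. Those lower in both pairs were TRAM2 and MARCHF6, 2.02% of 99 against 1.07% of all genes. TRAM2, related to the translocating chain protein TRAM1, had 13.0, 7.30, 11.4 and 7.76 per M, with ratios of -0.73 (-1.03 to -0.44) and -0.73 (-1.01 to -0.45). MARCHF6, an ER ubiquitin ligase, had 21.0, 12.9, 16.1 and 12.0 per M, with ratios of -0.59 (-0.82 to -0.37) and -0.59 (-0.82 to -0.37), and of -0.29 and -0.27 against the local median. Both genes, named because they were lower in both pairs, were higher in each empty vector library than in either PHF19 overexpression library.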

How the data were processed

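The 42 genes and every list and rule were chosen with earlier results of these data known. Per the file headers, MACS2 2.1.2 called peaks library by library from fragment pairs with no control and a q of 0.01, and duplicates were retained. The tools bcl2fastq 2.17, Trimmomatic 0.38 and DiffBind, and the build hg38, are named in the submitters' processing notes. Which aligner and filters were used is not given in the sources used here. As deposited, pileup is a signal: the coverage by fragments at each summit, unscaled per the file headers. The authors' p-value and q-value columns, both as −log10, and their fold enrichment, a ratio to local background, only served to describe or filter peaks within a list.

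Summits were collapsed to 1 peak per interval on chromosomes 1 to 22 and X, and peaks overlapping by at least 1 bp were merged into regions. Height was the tallest pileup per M (mega) fragments. A gene was represented by its gene-end region of greatest mean height. Ratios were centred on the median over all regions shared by the 2 libraries, which removed -0.11, 0.17, -0.09 and 0.11 for the 4 comparisons in the order given. Gene coordinates and promoters were from RefSeq on GRCh38.p14. With 1 library per group there is no replicate check and no test was run. A gene of the marker lists is not reported here. Named were the sensors and factors, HSPA5, HSP90B1, MZB1 and JCHAIN, the 4 tallest and lowest gene ends, the 4 highest and lowest mean ratios, genes without a gene-end peak, up to 6 other regions per direction by the smaller ratio of both pairs with a mean of at least 1 per M, and the 4 tallest regions of 1 vector or prefix. Other genes and regions were picked after their values were seen. The steps were tested on simulated data and run with Python 3.11.15, numpy 2.4.6, pandas 2.3.3 and scipy 1.17.1.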

Additional observations from a re-analysis of the deposited data

How the results depend on the processing

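Of 166 counts and medians recomputed under an alternative, 136 kept their direction and stayed near their value, and of 490 ratios of single regions 462 stayed within their counting interval. The sign differed for 58 of the 490, 20 of them without centring, 23 with the trend in height removed and 15 against the local median, and for 0 whose reported ratio passed 1.5-fold. The TXNDC5 region kept -1.20 to -1.36 and -1.43 to -1.63 under every height alternative run. The cause of the changes below was not tested, except that a stricter fold or q leaves fewer regions. Without centring, the gene-end medians were -0.26 and 0.10 for the pairs without and with the prefix, and -0.29 and 0.03 for the prefix with empty vector and with PHF19 overexpression, so that the medians 0.10 and 0.03 changed sign. Gene ends lower in the IFN-prefixed pair were then 0, and regions away from gene ends were 7 lower in the first pair, 9 higher and 2 lower in the second and 1 higher in both. With the trend in height removed, the first median was -0.03 and that of the prefix with empty vector turned to 0.01, and 5 regions away were lower in the first pair. Relative to the local median, 0 gene ends and 1 region away were higher in the first pair, 2 regions away were higher in the second, and the median of the prefix with empty vector was -0.17. Matching summits left 1 region away higher in the first pair, and a q of 1e-05 left 1 lower. Requiring the summit within 1 kb of a gene end, or using the start region, left 0 gene ends higher in the first pair, and the start region left 0 lower in the second. At 2-fold, gene ends were 0 higher in the first pair and 0 lower in the second, and regions away were 0 higher and 1 lower in each. Leaving out IFN empty vector, so that the first pair stood alone, gave 1 gene end higher and 2 regions away higher and 3 lower. The start region, the regions away and the first pair alone were chosen after seeing the data. No paired analysis was possible because the results come from no test, each group held 1 library and the labels give no replicate numbers. Depth limits weak peaks most in the PHF19 overexpression libraries, where the lowest peak called had 8 fragments.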
